A study of Rattus norvegicus with 2 samples.

Results

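Mitochondrial ribosomal proteins are the protein part of the ribosome that sits inside mitochondria. They are encoded in the nucleus, made in the cytosol and imported, and the ribosome they form with mitochondrial RNA translates the few messages of mitochondrial DNA, which encode core subunits of the respiratory chain and ATP synthase. Some of the proteins have counterparts in bacterial ribosomes and others occur in mitochondria alone, and skeletal muscle, with its high oxidative demand, depends on this machinery. The genes described here were all those whose symbol in the probe annotation of the array starts with Mrpl (large subunit) or Mrps (small subunit) followed by a digit. There were 73 such genes out of 14217 with a probe set of their own, 46 of the large and 27 of the small subunit. The rule used symbols and no measured value, although it was chosen with earlier results of these data known.

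Adductor muscle, of the inner thigh, was compared between the left hindlimb of male Lewis rats, an inbred strain, 24 hours after fine needle stimulation, and the right hindlimb, which was left intact. The needle was 0.14 mm thick and made 100 pricks, spread over an area with sides of 10 mm. Each group was 1 Affymetrix array of total RNA. No difference could be checked against replicates or tested, and "higher" and "lower" therefore refer to the single sample of each limb. Neither the age nor the number of the animals is in the labels, which also do not say whether both pieces of muscle came from 1 rat, and the contralateral limb of a treated animal is not an untreated animal.

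Values are MAS5 signals, a linear intensity per probe set with no unit of mass, and the log2 ratio is that of the stimulated over the control limb. A floor of 19.8, the median of all non-control signals, was applied before ratios were taken, and a gene counted as measured where at least 1 array reached it. All 73 genes reached the floor on both arrays. The 3'-to-5' signal ratio of beta-actin, a measure of RNA integrity, was 2.43 on the stimulated and 2.26 on the control array. All 7 muscle fibre markers had high signals on both arrays, with Ckm (muscle creatine kinase) at 12064 in the stimulated and 16392 in the control limb. The only error at hand is the spread between probe sets of the same gene, an SD of 0.31 for the log2 ratio of a single probe set over 2174 genes, which leaves out all variation between limbs and animals. The hybridisation spike-ins, added in fixed amounts, were all lower on the stimulated array (18 of 18, median log2 ratio -0.38), so directions hold only under the deposited scaling. They are counted from a log2 ratio of 0, and the median gene of the arrays was at 0.019. Scaled to the spike-ins instead, 71 of the 73 genes lay above 0, against 84.9% of all genes, whose median was 0.39.

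Promoters are shown first because genes of this family are known to be bound near their start by NRF1, by ETS-family factors such as GABP, and by YY1, which act on many nuclear genes for mitochondrial proteins. Sequences of 250 bases before each gene's start were taken from RefSeq on build GRCr8, the build of the table and not of the array, which names none. They are written 5' to 3' on the strand of the gene, with matches to the searched letters on either strand in capitals. The motifs searched were TGCGCANGC for NRF1, CCGGAAG for ETS factors and AAGATGGCG for YY1. For each motif the gene with the highest log2 ratio that holds it before its start is given (each gene once), followed by the gene with the lowest ratio among those with a promoter.
Mrps31, ETS match, chr16:76324066-76324315, minus strand: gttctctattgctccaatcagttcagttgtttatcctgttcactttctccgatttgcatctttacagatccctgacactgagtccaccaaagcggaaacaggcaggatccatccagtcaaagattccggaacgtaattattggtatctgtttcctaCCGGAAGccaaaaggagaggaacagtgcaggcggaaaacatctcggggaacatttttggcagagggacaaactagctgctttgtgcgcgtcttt
Mrpl32, NRF1 matches, chr17:55260401-55260650, plus strand: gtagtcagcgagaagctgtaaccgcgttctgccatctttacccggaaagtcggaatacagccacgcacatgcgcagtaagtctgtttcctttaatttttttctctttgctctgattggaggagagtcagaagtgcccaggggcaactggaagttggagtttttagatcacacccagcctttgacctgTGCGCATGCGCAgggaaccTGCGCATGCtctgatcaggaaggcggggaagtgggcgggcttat
Mrpl36, ETS match and then YY1 match (on the other strand), chr1:31795122-31795371, minus strand: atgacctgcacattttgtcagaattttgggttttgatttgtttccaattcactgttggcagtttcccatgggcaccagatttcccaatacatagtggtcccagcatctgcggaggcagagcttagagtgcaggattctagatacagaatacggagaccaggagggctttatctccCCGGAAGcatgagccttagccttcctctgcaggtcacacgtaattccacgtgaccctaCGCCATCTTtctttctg
Mrpl34, no match, chr16:18186197-18186446, plus strand: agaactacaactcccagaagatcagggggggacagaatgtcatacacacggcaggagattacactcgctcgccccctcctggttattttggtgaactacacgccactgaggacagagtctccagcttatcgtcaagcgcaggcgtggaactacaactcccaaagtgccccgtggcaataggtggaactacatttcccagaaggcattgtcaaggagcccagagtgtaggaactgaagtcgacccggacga

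The Mrps31 match began 94 bases before the gene's start, the matches of Mrpl32, of which the first 2 overlap, 63, 60 and 44 bases before it, and the matches of Mrpl36 75 and 17 bases before it. Promoter sequences were found for 59 of the 73 genes and were searched over 300 bases, 250 before the start and 50 after it. The ETS letters were in 20 of the 59 promoters (33.9%), against 18.5% of the 8329 promoters of measured genes and 9.22% of all 27457 promoters in the table. NRF1 letters were in 8 (13.6%), against 8.69% and 4.22% of the same backgrounds, and YY1 letters also in 8 (13.6%), against 4.11% and 1.93%. The SP1 letters GGGCGG, common in promoters, were in 30 (50.8%), against 63.4% and 34.9%. At least 1 of the ETS, NRF1 and YY1 motifs was in 30 of the 59 promoters. This pooled count was not made over the other promoters, so it has no background to be read against. A match says only that these letters are present. The median log2 ratio was 0.19 for genes with the ETS letters and 0.21 for those without, and 0.20 both with and without the NRF1 letters and with and without the YY1 letters. For the SP1 letters it was 0.23 with and 0.16 without them. No test of these differences was possible.

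The comparison of the limbs asked how transcripts of pricked muscle differed from those of unpricked muscle. Most genes of the mitochondrial ribosome had a slightly higher signal in the stimulated limb, 58 of 73 lying above a log2 ratio of 0 and 15 below it. The median log2 ratio was 0.18, which is 1.13-fold, with an SD of 0.22 between genes. Over all 9956 measured genes, 52.3% lay above 0, the median was 0.019 and the SD 0.43. No gene of the family was 2-fold apart in either direction, while over all measured genes 1.43% passed that fold on the higher side and 1.43% on the lower. At 1.5-fold, 3 of 73 were higher, against a background of 6.59%, and 0 were lower, against 6.94%. At 1.2-fold, 23 of 73 (31.5%) were higher, against 23.7% of all genes, and 2 of 73 (2.74%) were lower, against 21.4%. The family formed a narrow band just above the median gene, with few lower members. Its SD of 0.22 was below that of a single probe set, 0.31.

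**Figure D1:**
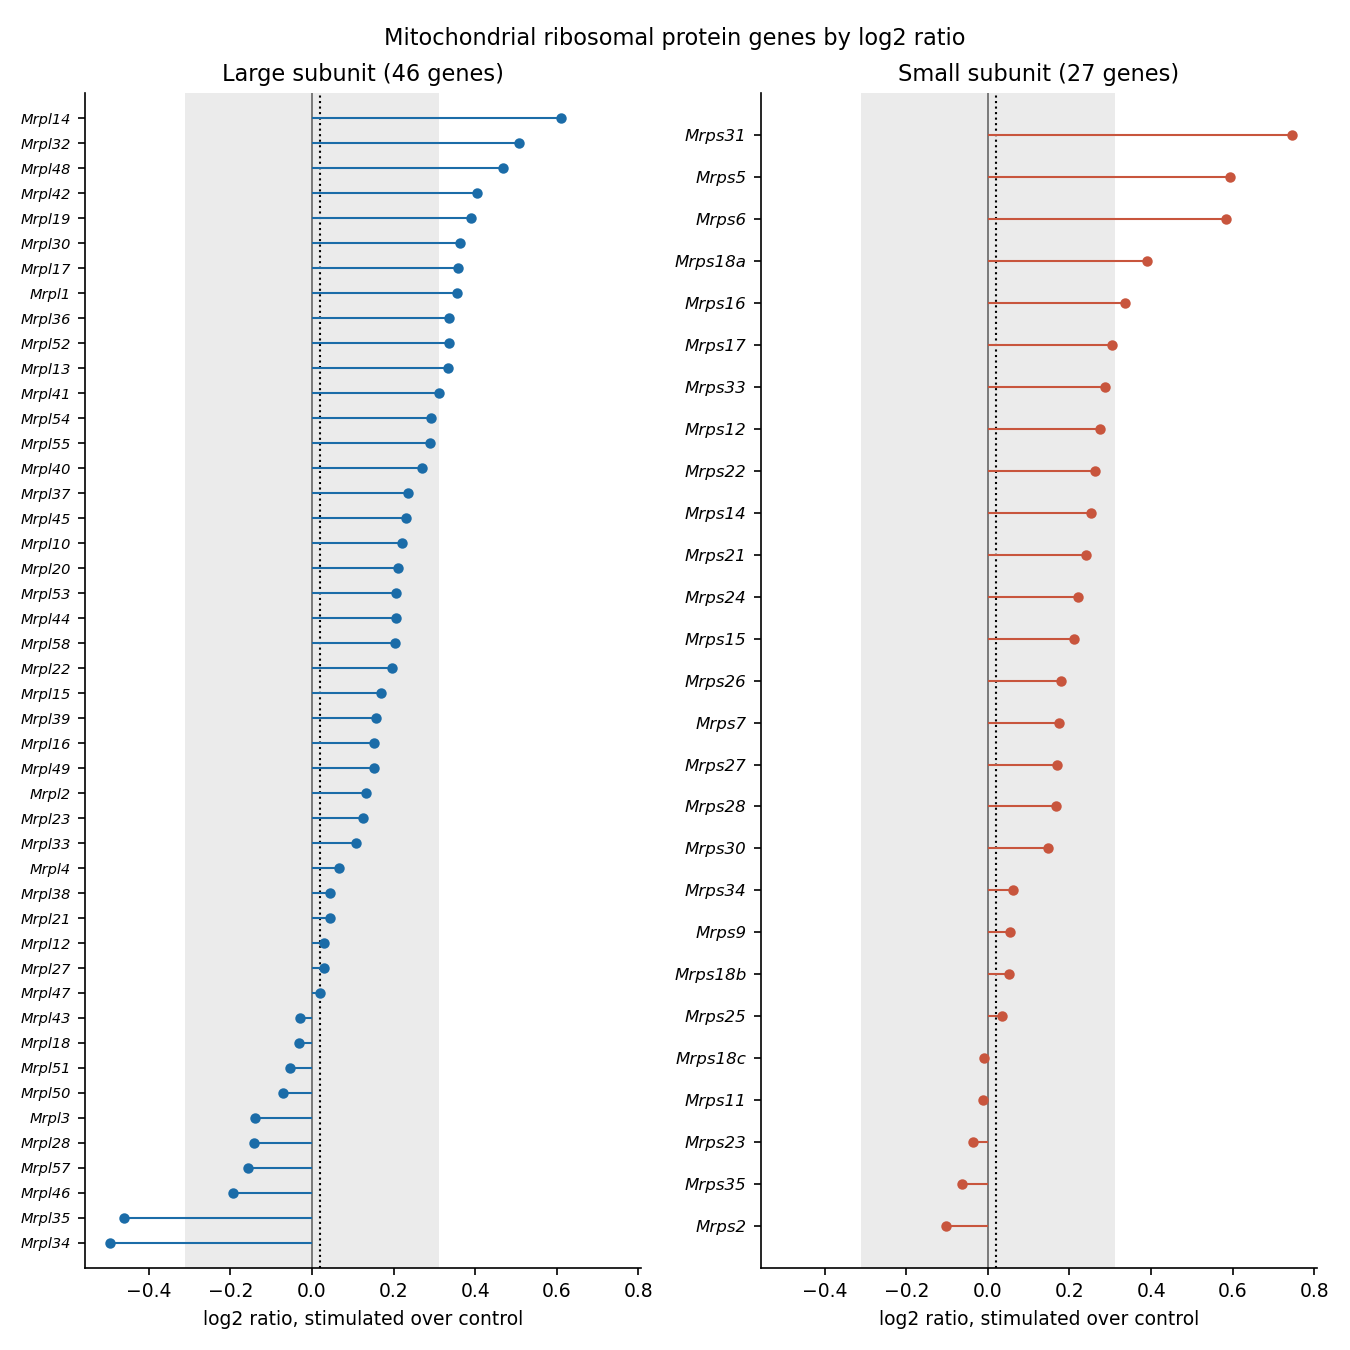
Log2 ratio of stimulated over control muscle for each of the 73 genes, large subunit on the left and small subunit on the right, 1 array per group. The grey band is the SD of a single probe set (0.31) on either side of 0 and the dotted line the median of all measured genes (0.019). Most points lie to the right of both lines and inside the band.

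Bright and dim genes can be scaled unequally, so the family was also read beside genes of like signal. Of the 73 genes, 67 had a mean signal between 100 and 1000, with a median log2 ratio of 0.18 and 77.6% above 0. The 4058 measured genes in that signal range had a median of 0.050, with 57.5% above 0. Their SD was 0.39, against 0.21 for the 67 genes. At 1.2-fold, 22.9% of the 4058 genes were higher and 15.5% lower, against 29.9% and 2.99% of the 67. With quantile normalization the median of the family was 0.15 and that of all genes 0.042, and 49 of the 73 then lay above the median gene, against 58 with the deposited scaling.

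The subunits had nearly the same median. The 46 large subunit genes had a median log2 ratio of 0.18, from -0.49 to 0.61, with 36 above and 10 below 0. The 27 small subunit genes had a median of 0.18, from -0.10 to 0.74, with 22 above and 5 below 0. The medians differed by 0.0038, and the sign of that difference changed with the processing, from -0.024 to 0.0040 over the alternatives. At 1.2-fold, the large subunit had 15 higher (32.6%) and 2 lower genes (4.35%). The small subunit had 8 higher (29.6%) and 0 lower genes at the same fold. Over all measured genes, 23.7% were higher and 21.4% lower at that fold. Both of the lower genes thus belonged to the large subunit, and no test of that difference was possible.

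**Figure D2:**
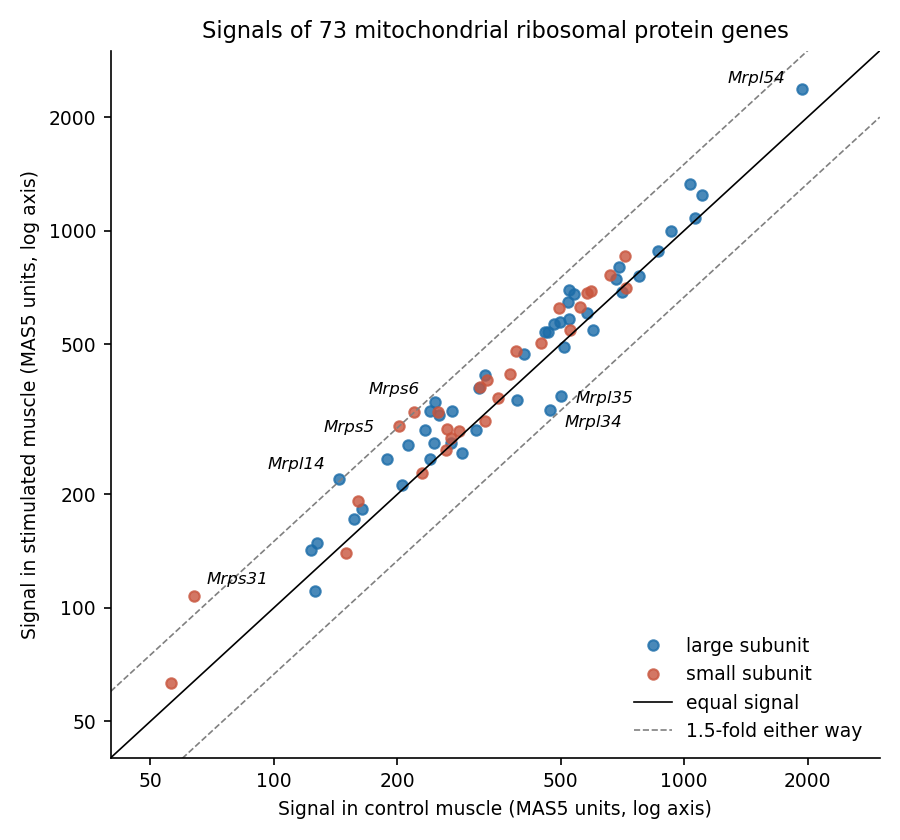
Signal in the stimulated limb (vertical axis) against that in the control limb (horizontal axis) for the 73 genes, in MAS5 units on log axes. The solid line marks equal signals and the dashed lines a 1.5-fold difference. Mrps31, Mrpl14 and Mrps5 lie just beyond the upper dashed line and no gene lies beyond the lower one.

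Among the large subunit genes, Mrpl14 (Entrez gene 301250), the counterpart of a bacterial protein at the interface with the small subunit, had a signal of 219 in the stimulated and 144 in the control limb. That was a 1.53-fold difference (log2 ratio 0.61), higher than in 94.0% of measured genes. Mrpl32 (Entrez gene 291206), whose precursor is cleaved by the m-AAA protease of the inner membrane before it enters the ribosome, had 351 in the stimulated and 247 in the control limb, 1.42-fold higher. Mrpl48, of the central protuberance, a projection that faces the head of the small subunit, had 332 in the stimulated and 240 in the control limb, 1.38-fold higher. These were the largest positive ratios of the subunit, and each came from a single measured probe set.

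The next highest genes of the large subunit lay between 1.28-fold and 1.32-fold higher. Mrpl42, which encodes a protein with no bacterial counterpart, had 694 in the stimulated and 525 in the control limb. Mrpl19 had 248 in the stimulated and 189 in the control limb, and Mrpl1, a protein of the stalk through which tRNAs leave in bacteria, had 271 in the stimulated and 212 in the control limb. Mrpl17, which lies near the exit of the peptide tunnel, had 1327 in the stimulated and 1035 in the control limb, from a probe set whose name marks it as shared between transcripts. Mrpl30 had 325 in the stimulated and 253 in the control limb. Of these, Mrpl30 has 9 pseudogenes or like-named copies in RefSeq, Mrpl42 has 3, and Mrpl1 and Mrpl17 have 2 each, so their probe sets could take up signal from copies. Across the family, 22 genes have such a copy, with a median log2 ratio of 0.24, and the 51 with none had a median of 0.17.

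The genes below 0 were few. Mrpl34 (Entrez gene 290632), the counterpart of a small bacterial protein, had a signal of 335 in the stimulated and 471 in the control limb, 1.41-fold lower (log2 ratio -0.49). Mrpl35 (Entrez gene 297334) had 364 in the stimulated and 501 in the control limb, 1.38-fold lower (log2 ratio -0.46). The next lowest, Mrpl46, had 110 in the stimulated and 126 in the control limb, a log2 ratio of -0.19. Mrpl34, Mrpl35 and Mrpl46 had 1 measured probe set each. Given the probe set SD of 0.31, a separation of Mrpl34 and Mrpl35 from the rest is not established. The other 12 genes below 0 lay between -0.16 and -0.011. They included Mrpl3 (545 in the stimulated and 600 in the control limb), which in bacteria lies close to the peptidyl transferase centre, and Mrpl28 (355 in the stimulated and 391 in the control limb).

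Proteins of known position in the large subunit were looked at as small groups, which were chosen after the values were seen. For comparison, 79.5% of the family and 52.3% of all measured genes lay above 0. All 5 genes for proteins around the exit of the peptide tunnel (Mrpl17, Mrpl22, Mrpl23, Mrpl45 and Mrpl47) lay above 0, with a median of 0.20. Mrpl45, which tethers the ribosome to the inner membrane, had 537 in the stimulated and 458 in the control limb, 1.17-fold higher. Of 7 genes of the central protuberance, 5 lay above 0, with a median of 0.045, and apart from Mrpl48 they ranged down to Mrpl46. The stalk genes Mrpl10 and Mrpl12, whose proteins meet the translation factors, had log2 ratios of 0.22 and 0.031. Their other measured probe sets lay below 0, at -0.068 for Mrpl10 and -0.073 for Mrpl12. At its brighter probe set, Mrpl12 had 884 in the stimulated and 865 in the control limb. Beside Mrpl17, the strongest signals of the subunit were those of Mrpl54 (2378 in the stimulated and 1944 in the control limb), Mrpl15 (1245 in the stimulated and 1108 in the control limb) and Mrpl27 (1083 in the stimulated and 1061 in the control limb), all above 0. Mrpl58, a peptidyl-tRNA hydrolase that became a ribosomal protein, had a log2 ratio of 0.20.

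In the small subunit the largest difference of the whole family was that of Mrps31 (Entrez gene 290850), a protein of the subunit's head. The stimulated limb had a signal of 107 and the control limb one of 64.0, 1.68-fold higher (log2 ratio 0.74). This was also among the dimmest probe sets of the family, where relative noise is larger. Mrps5 (Entrez gene 296134), whose bacterial counterpart bears on the accuracy of decoding, had 304 in the stimulated and 201 in the control limb, 1.51-fold higher. Mrps6 had 330 in the stimulated and 220 in the control limb, 1.499-fold higher. These 3 had the largest ratios of the subunit, the next being Mrps18a at a log2 ratio of 0.39. Each of them had 1 measured probe set.

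Mrps16 had 624 in the stimulated and 494 in the control limb, 1.26-fold higher, and Mrps17 had 481 in the stimulated and 389 in the control limb, 1.23-fold higher. Both have bacterial counterparts in the body of the subunit. Mrps33, of the head, had 403 in the stimulated and 330 in the control limb, 1.22-fold higher. Mrps12, the protein of the decoding centre, had 385 in the stimulated and 318 in the control limb, 1.21-fold higher. Among the probe sets with strong signals, Mrps14 had 855 in the stimulated and 718 in the control limb, and Mrps24 had 690 in the stimulated and 592 in the control limb, while Mrps23 had 704 in the stimulated and 722 in the control limb. Of 7 genes of the head, 6 lay above 0, with a median of 0.22, where 79.5% of the family and 52.3% of all measured genes did. The lowest ratio of the subunit was that of Mrps2, with 140 in the stimulated and 150 in the control limb (log2 ratio -0.10). Its other measured probe sets had log2 ratios of -0.50 and -0.0019.

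For Mrps18a and Mrps30 the symbol does not match where the protein sits, since the products of both are found in the large subunit. Mrps18a had 330 in the stimulated and 252 in the control limb, 1.31-fold higher, and Mrps30 had 418 in the stimulated and 377 in the control limb, 1.11-fold higher. Counted by position, the large subunit had 48 genes with a median of 0.18 and the small subunit 25 with a median of 0.18. The medians by origin were also close. The 42 genes with a bacterial counterpart had a median log2 ratio of 0.19, with 34 above 0, and the 31 specific to mitochondria a median of 0.18, with 24 above 0.

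**Figure D3:**
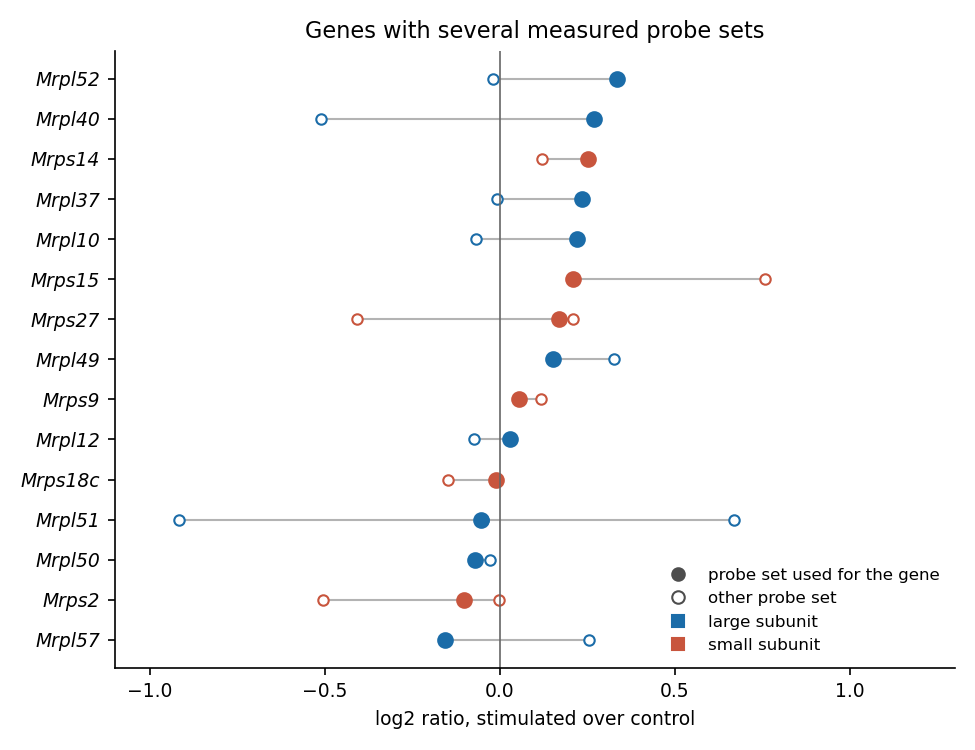
Log2 ratios of all measured probe sets of the 15 genes that have more than 1, filled where the probe set stands for the gene and open otherwise, blue for the large and red for the small subunit. Mrpl51 and Mrpl40 have the widest spans, and both reach to either side of 0.

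Of the 73 genes, 15 had several measured probe sets, which is the only repeat measurement within the family. The 2 brightest probe sets lay on the same side of 0 for 9 of the 15 genes, above it for 5 and below it for 4, and on opposite sides for 6. Their spread came to an SD of 0.23 for a single probe set, against 0.31 over all genes. Mrpl51 had 4 measured probe sets with log2 ratios of -0.92, -0.054, -0.047 and 0.67, and the outer 2 had the lowest signals. Mrpl40, of the central protuberance, had 0.27 from its brighter probe set (382 in the stimulated and 317 in the control limb) and -0.51 from the other (85.8 in the stimulated and 122 in the control limb). For Mrps15 both were positive, at 0.21 and 0.76. The ratio of an individual gene in this family can therefore differ in sign with the probe set. The brightest probe sets, which stand for the genes here, lay above 0 for 10 of the 15 genes (median 0.15), and the next brightest for 6 of 15 (median -0.020). The other 58 genes had 1 measured probe set and no such repeat, so their ratios cannot change with this choice. With the median over probe sets taken for each gene, 57 of 73 lay above 0 and the median of the family was 0.17.

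**Figure D4:**
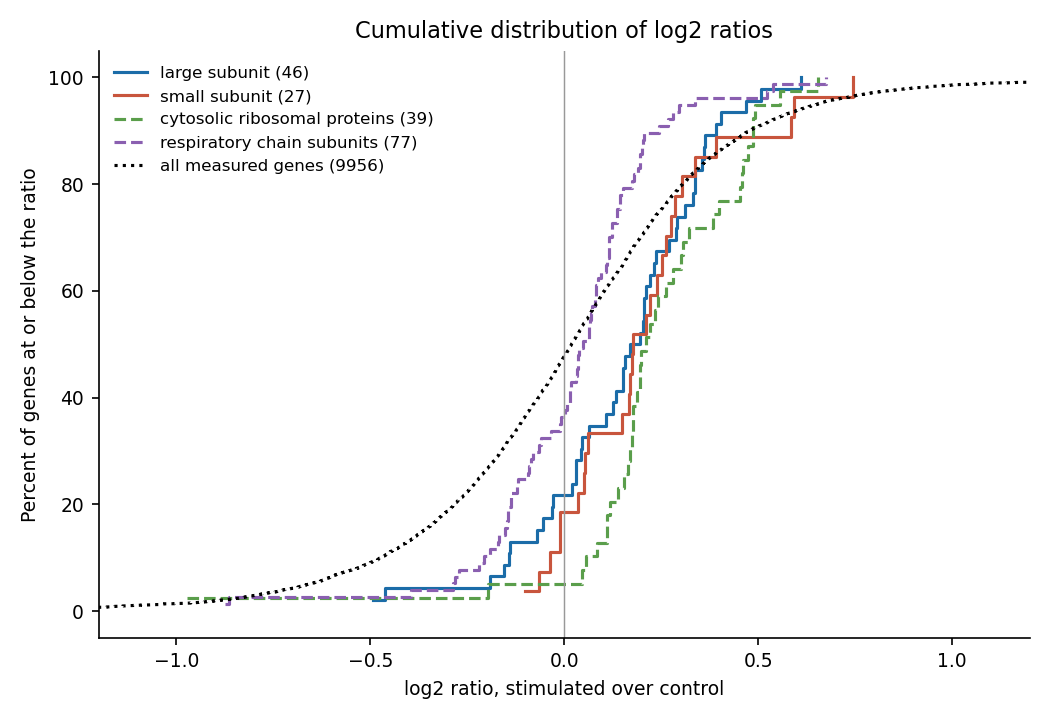
Cumulative share of genes (vertical axis, percent) at or below each log2 ratio (horizontal axis) for the large and small subunits, the cytosolic ribosomal proteins, the respiratory chain subunits and all measured genes, with the number of genes in parentheses. The curves of both mitochondrial subunits run together, over most of their range between those of the respiratory chain and the cytosolic ribosome, and are steeper than that of all genes. The axis omits values beyond 1.2 in either direction.

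The family was set beside the proteins of the other ribosome and the nuclear-encoded proteins of the respiratory chain and ATP synthase. The 39 measured cytosolic ribosomal protein genes had a median log2 ratio of 0.21, with 37 above 0. The 77 measured nuclear genes of the respiratory chain and ATP synthase, which included the inhibitor Atp5if1, had a median of 0.049, with 49 above 0. The median of the mitochondrial ribosome, 0.18, thus lay nearer to that of the cytosolic ribosome than to that of the respiratory chain. By the share above 0 it lay between them, with 58 of 73 (79.5%), against 94.9% and 63.6%. The median signal of the family was 368, against 4079 for the cytosolic ribosome and 2903 for the respiratory chain. The 3 groups were not compared at like signal. With 1 array per group none of these differences could be tested. In the respiratory chain, Cox5a, a subunit of cytochrome c oxidase, had 123 in the stimulated and 225 in the control limb. Atp5if1, the inhibitor of ATP synthase, had 361 in the stimulated and 226 in the control limb. The signals of both were far below the median of their list. Among the cytosolic ribosomal proteins, Rpl3 had 2796 in the stimulated and 1777 in the control limb. The most different gene of that list, Rpl39, went the other way, with 24.2 in the stimulated and 47.5 in the control limb, signals near the floor.

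Other genes of mitochondrial translation did not all share the direction. The 5 measured ribosome proteins whose symbols lack the prefix were all above 0, with a median of 0.23, led by Aurkaip1 (415 in the stimulated and 328 in the control limb). Ptcd3, a protein at the entry of the message, had 291 in the stimulated and 239 in the control limb. Of 10 measured translation factors, 6 lay above 0, with a median of 0.16. The initiation factor Mtif2 had 144 in the stimulated and 87.9 in the control limb, 1.63-fold higher, and the release factor Mtrf1 had 52.0 in the stimulated and 30.0 in the control limb, 1.73-fold higher, at low signals. The elongation factor Tufm had a log2 ratio of -0.038.

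The list of mitochondrial aminoacyl-tRNA synthetases, which charge tRNAs for this ribosome, lay mostly on the other side. Of its 15 measured genes, 10 (66.7%) were below 0 and 5 above, with a median of -0.11, and 47.7% of all measured genes were below 0. The list also held the subunits of the amidotransferase that makes glutaminyl-tRNA, Gatb, Gatc and Qrsl1, all of them below 0. The synthetases without these subunits went both ways. Cars2 had 20.2 in the stimulated and 28.7 in the control limb, 1.42-fold lower, and Gatb had 49.1 in the stimulated and 66.5 in the control limb, 1.35-fold lower. Sars2 went the other way, with 34.5 in the stimulated and 21.7 in the control limb. Signals of this list were low, with a median of 52.0, and low MAS5 signals carry more relative noise.

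Ribosome assembly factors had a median log2 ratio of 0.096, with 12 of 19 above 0. The rRNA methyltransferase Nsun4, which acts late in assembly, had 63.8 in the stimulated and 39.1 in the control limb, 1.63-fold higher, and Fastkd2 had 91.2 in the stimulated and 63.5 in the control limb, 1.44-fold higher. Genes for transcription of mitochondrial DNA and handling of its RNA had a median of 0.18, with 11 of 13 above 0. Slirp, which stabilises mitochondrial messages, had 630 in the stimulated and 446 in the control limb, 1.41-fold higher. Genes of protein import, chaperones and proteases had a median of 0.15, with 11 of 16 above 0, led by the import receptor subunit Tomm22 (853 in the stimulated and 659 in the control limb).

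**Figure D5:**
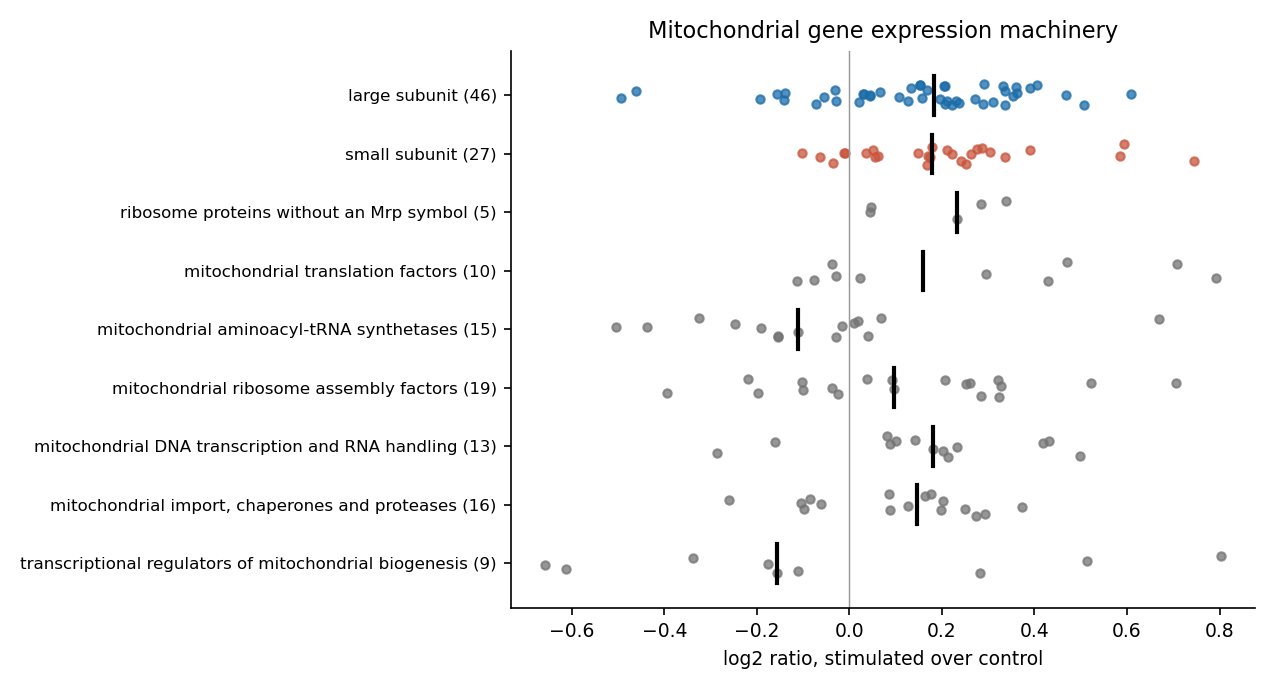
Log2 ratio (horizontal axis) of each measured gene in the large and small subunits and in 7 related lists, with a black bar at each median and the number of genes in parentheses. The subunits and most lists have medians above 0, and those of the aminoacyl-tRNA synthetases and the transcriptional regulators lie below it.

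Transcriptional regulators of mitochondrial biogenesis went both ways, with 3 of 9 above 0 and a median of -0.16. Gabpb1, the beta subunit of the ETS factor GABP, had 43.9 in the stimulated and 69.3 in the control limb, 1.58-fold lower, while its DNA-binding partner Gabpa had a log2 ratio of 0.28. The coactivator Ppargc1b had 29.5 in the stimulated and 45.1 in the control limb, 1.53-fold lower, and its better known relative Ppargc1a had a log2 ratio of -0.16. Pprc1, a coactivator of the same family induced by growth signals, was at least 1.74-fold higher, with 34.5 in the stimulated limb and a control signal below the floor. Nrf1 was at least 1.43-fold higher, with 28.2 in the stimulated limb and a control signal below the floor. The 4 regulators named with signals had low ones, and Yy1 had a log2 ratio of -0.11.

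The samples differed in their signals for markers of cell types, and in bulk muscle fewer cells of a type and less RNA per cell cannot be told apart. All 9 macrophage markers were higher in the stimulated limb, with a median of 2.49-fold and the smallest difference, 1.49-fold, for Csf1r. Their summed signal was 10166, against 1798 in the control limb, where 1 of them, Spp1, was below the floor. Most of the sum in the stimulated limb came from Gpnmb (3165), Spp1 (2847) and Lgals3 (2027). All 7 muscle fibre markers were lower, with a sum of 62238 in the stimulated and 81933 in the control limb and a median log2 ratio of -0.44. All 5 slow-fibre markers were higher, summing to 1122 in the stimulated and 187 in the control limb, where Tnnt1 and Myh7 were below the floor. All 5 measured endothelial markers were lower (386 in the stimulated and 806 in the control limb), as were all 3 measured adipocyte markers (90.2 in the stimulated and 320 in the control limb). Of the adipocyte markers, Plin1 and Cidec were below the floor in the stimulated limb. Of 5 fibroblast markers, 3 were lower and 2 higher. The 73 mitochondrial ribosomal genes summed to 35566 in the stimulated and 31766 in the control limb. The part of these cell types in the shift of the family was not tested.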

How the data were processed

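The authors deposited 1 linear signal intensity per probe set and array, made with MAS5 per the submitters' processing notes. Neither its version nor its scaling target is given in the sources used here. Both arrays, of 31099 probe sets each, had a 2% trimmed mean of 76.5. From these values, 57 control probe sets were removed, signals under the floor (the median of the others, 19.8) were raised to it, and log2 ratios of stimulated over control were taken. Of the measured probe sets of a gene, the one with the highest mean stood for it, which gave 9956 genes. Only probe sets with 1 gene symbol in the platform annotation were used. The 73 genes had 97 probe sets, of which 92 were measured, and all 73 matched RefSeq (GRCr8) by gene identifier with 0 symbols changed.

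Groups were taken from the sample titles. With 1 array per group no test was possible, and the number of arrays limits the precision of every value. Genes were counted past 2-fold, 1.5-fold and 1.2-fold and beside 0. Named genes were the 10 large and 8 small subunit genes with the largest absolute log2 ratio, the 4 with the strongest signals in each, all genes past 2-fold, all with several measured probe sets (at least by range), 6 chosen for their role, and the 4 most different genes of each related list, of which the text gives some, with marker lists given as sums. Other genes named, and the groups by position, were chosen after their values were seen. The members and lists were chosen with earlier results of these data known. A total of 9 alternatives were computed. The counting was tested on simulated data. Python 3.11.15, numpy 2.4.6, pandas 2.3.3 and matplotlib 3.10.9 were used.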

Additional observations from a re-analysis of the deposited data

How the results depend on the processing

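Under 8 of 9 alternatives (other floors, a pseudocount of 20, other choices of probe set, a stricter filter, quantile normalization and centring on the median gene), the medians of the large subunit, the small subunit and the family moved by less than 0.1 and stayed above 0. The lower floor and the stricter filter could not change these medians, since all 73 genes reached the floor on both arrays. Centring subtracted the same 0.019 from every gene, and 58 of the genes had only 1 measured probe set. Scaling to the spike-ins raised the medians of the large subunit, the small subunit and the family to 0.57, 0.56 and 0.56, with that of all genes at 0.39. With that scaling, 35 genes were at least 1.5-fold higher, against 28.3% of all genes. Relative to the median gene, the median of the family lay between 0.11 and 0.17 under all 9. With the pseudocount 1 gene was at least 1.5-fold higher, against 3. The difference between the subunits turned negative with the floor at the 75th percentile (-0.012), the median over probe sets (-0.024), without suffixed probe sets (-0.0098) and with quantile normalization (-0.016), and the cause was not tested. Of 251 values of 28 named genes, 223 moved by less than the probe set SD, some of them under settings that could not move them. The 28 values that moved more were those under spike-in scaling. Among the named genes, Mrpl12 was at -0.021 with the median over probe sets, against 0.031 as reported, and Mrps23 at 0.35 with spike-in scaling, against -0.037. No paired analysis was possible because each group has 1 array.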

Other observations

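Several genes of the family start close to another gene on the opposite strand, so the values of those neighbours were read as well. Of the 59 genes with a promoter sequence, 18 had a start of the other strand within 1000 bases upstream, and 13 of these neighbours were measured. The 13 ribosomal genes had a median log2 ratio of 0.13 and their neighbours one of -0.012, from -0.47 to 0.45, with 6 of 13 neighbours above 0. Since Mrpl46 and Mrps11 are each other's neighbours, these were 12 distinct pairs, of which 5 lay on the same side of 0. Mrpl32 and the proteasome subunit gene Psma2, whose starts lie 210 bases apart, were both higher, with log2 ratios of 0.51 and 0.45. Mrpl30 and Mitd1, 194 bases apart, differed in direction, at 0.36 and -0.47, although the signals of Mitd1 were near the floor (20.7 in the stimulated and 28.7 in the control limb). Mrpl46 and Mrps11, 234 bases apart, both lay below 0, at -0.19 and -0.012.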
